A study of Mus musculus with 12 samples.

Results

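Collagens are the main structural proteins of the extracellular matrix, and the genes of their chains were followed in cultured nephron progenitor cells (NPCs), the self-renewing cells of the embryonic kidney that form the nephrons. All genes named Col, a number, a and a number were taken, which gave 44 of the 54184 genes in the tables. They were split into fibrillar, fibril-associated, basement membrane type IV, beaded filament type VI, short network, multiplexin and transmembrane chains and 3 others. NPCs of genotype WT came from E13.5 kidneys of CD1 females mated to Six2GFP+ or GFP- males, were isolated by magnetic sorting, expanded for some passages in nephron progenitor expansion medium (NPEM) and cultured for 24 h in 1 of 4 conditions. These were NPEM control, DMEM control, 3.5 µM CHIR99021 (CHIR) in DMEM and 20 µM YN1 in DMEM, with 3 poly-A libraries each and 12 in all. CHIR inhibits GSK3 and thereby activates WNT signaling, and YN1 inhibits the glycolytic regulator PFKFB3. The drug medium held KO serum replacement and 200 ng/mL Fgf2, while the supplements of the DMEM control are not described, so it may differ from the drug groups in more than the drug. Both drugs therefore differ from NPEM in drug and basal medium together. The cells of several embryos were pooled, and the GFP of the male parent marks the line, not a treatment.

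A collagen molecule is a triple helix of chains, and most types need a fixed set of chain genes. Fibrillar collagens (types I, II, III, V, XI, XXIV and XXVII) form the fibrils of loose and dense connective tissue. Fibril-associated collagens coat those fibrils, type IV forms the sheet of basement membranes and type VI forms beaded filaments between them. In the embryonic kidney the type I and III fibrils are known for the stroma, and the chains Col4a1 and Col4a2 for every basement membrane, with Col4a3, Col4a4 and Col4a5 taking over in the mature glomerulus.

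Levels are given as TPM, each transcript's share of the library corrected for its length, so that chains can be compared within a library. The unit drops the number of reads, and for want of a known depth no counting interval is given. Library sums were 969477 to 973162 TPM. At least 1 TPM in at least 1 library was reached by 40 of the 44 chains and in all 12 libraries by 24. Under 1 TPM everywhere were Col6a5, Col17a1, Col22a1 and Col28a1. Together the chains took 0.228% to 0.718% of a library's TPM. Six2 lay at 27.2 to 175 TPM in the 12 libraries. It is 1 of 9 nephron progenitor markers, which did not all move the same way between groups. Of 4 cartilage markers Acan, Matn1 and Comp stayed under 1 TPM in every library and Hapln1 reached at most 1.022. Of 5 blood markers 4 did so, and Hba-a1 reached 7.22. Of 6 endothelial markers Pecam1, Cdh5 and Tek stayed under 1 TPM, while Flt1 reached 2.27, Kdr 12.3 and Emcn 235 TPM. Cdh1, an epithelial cadherin of the ureteric bud, reached 15.4 TPM in NPEM replicate 3 and 7.26 to 10.8 in the other libraries numbered 3, with at most 0.335 elsewhere.

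The replicate number marked a large part of the spread. Libraries with the same number deviated together from their group means in all 18 pairs, with correlations of 0.349 to 0.689 over 15680 genes. Over 35 chains with a mean of at least 1 TPM, the number took a median of 54.6% of the sum of squares of log2(TPM + 1) and the group 32.6%, against 36.0% and 34.1% over 14690 genes. For 23 of the 35 chains the number took more than the group. Libraries numbered 1 were the highest of their group for Col3a1, Col5a2 and Col16a1, and libraries numbered 2 the highest for Col2a1, Col4a5 and Col4a6. A difference between groups was therefore fitted with limma both without and with the replicate number as a block. In bulk RNA, fewer cells of one kind and less RNA per cell cannot be told apart.

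Summed over its 11 genes, the fibrillar class had 2538, 953 and 1282 summed TPM in NPEM, 4471, 1658 and 3469 in DMEM, 3845, 1091 and 3756 with CHIR and 4019, 1567 and 3842 with YN1 (replicates 1, 2 and 3, here and below). Within each number NPEM was the lowest of the 4 groups, and the groups overlapped across numbers. Basement membrane type IV chains had 895, 574 and 516 summed TPM in NPEM, 1128, 527 and 675 in DMEM, 821, 496 and 624 with CHIR and 1182, 519 and 855 with YN1. Here the order of the groups changed with the number, and NPEM was the highest in replicate 2 and the lowest in replicate 3. Type VI chains had 697, 261 and 196 summed TPM in NPEM, 598, 321 and 168 in DMEM, 356, 162 and 73.3 with CHIR and 304, 289 and 155 with YN1. With CHIR they were below DMEM in every number. The 4 transmembrane chains had 86.2, 42.9 and 32.2 summed TPM in NPEM, 28.4, 18.9 and 8.92 in DMEM, 5.55, 20.5 and 5.67 with CHIR and 9.57, 17.1 and 8.70 with YN1, and every NPEM library was above all others. These sums rest on few genes, since Col1a1, Col3a1 and Col1a2 held most of the fibrillar sum, Col4a1 and Col4a2 that of type IV and Col25a1 that of the transmembrane chains in NPEM.

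**Figure D1:**
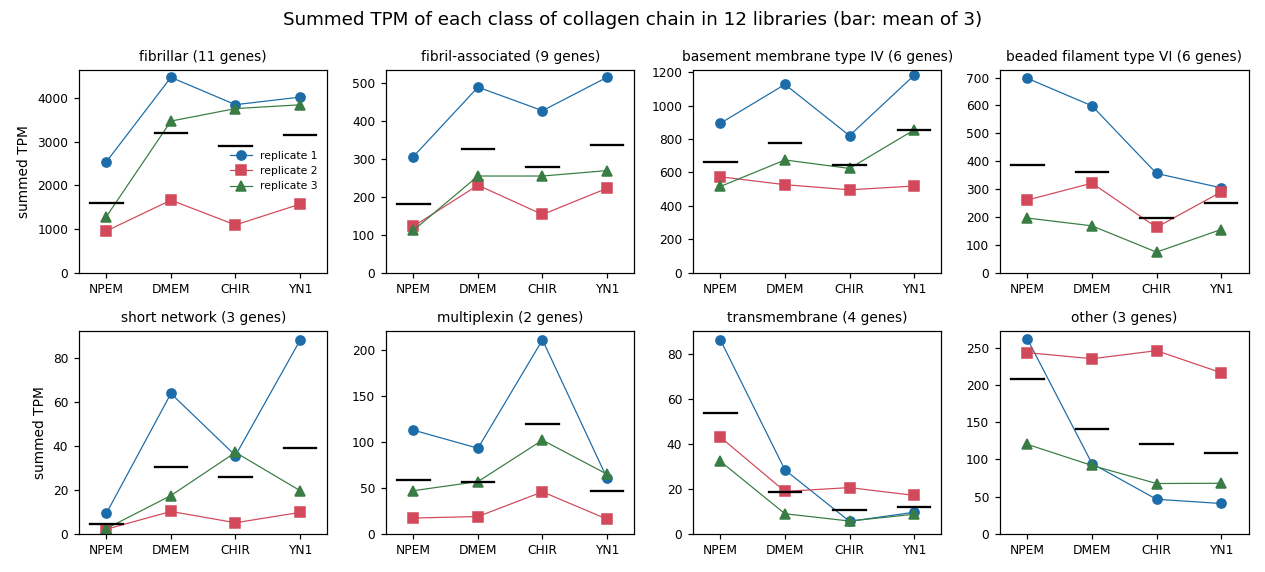
Summed TPM (linear axis from 0) of the 8 classes of collagen chain in the 4 groups. Points are libraries, thin lines join libraries with the same replicate number and black bars are means of 3. Fibrillar sums are lowest in NPEM within every number, and transmembrane sums are highest there.

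Leaving expansion medium without a drug was tested by DMEM against NPEM. LogFC is the difference in log2(TPM + 1), a scale on which changes at low levels look smaller than they are, and SE is its standard error. A chain was tested if 3 or more of the 6 libraries held it at 1 TPM or above, which left 34 of 44, among 14343 genes. No chain passed an adjusted p under 0.05 (Benjamini-Hochberg over all genes tested) in limma without the block, where 0.446% of all genes did, and 11 had an unadjusted p under 0.05. At the thresholds the study used, an absolute LogFC above 0.6 with an unadjusted p under 0.05, 7 chains were higher and 4 lower, where 10.6% of all genes passed. With the block, 8 chains rose and 2 fell by adjusted p, where 6.5% of all genes passed, and 21 passed the study's thresholds, where 14.8% did. "Rose" and "fell" are written below for chains past the adjusted p in the fit with the block, and "no call" for those past neither rule without the block nor the adjusted p with it. A larger share of chains than of all genes passed each of the last 3 rules, on chains that share libraries and preparations. The median LogFC of the chains was 0.48, beside 0.09 over all genes, and 0.34 beside -0.02 after quantile normalization. In all 3 numbers, 18 of the tested chains were higher and 7 lower than in NPEM, where 34.2% and 20.0% of all genes were. The blocked count of 10 was 9 without the libraries numbered 1, 1 without those numbered 2 and 12 without those numbered 3. Without the block, the 11 at the study's thresholds fell to 3 on leaving out NPEM replicate 2, to 5 on leaving out NPEM replicate 3 and to 7 on leaving out DMEM replicate 3.

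CHIR against DMEM set the CHIR group against the DMEM control, which may differ from it in supplements as well as in drug. Of 34 chains tested, 0 passed the adjusted p in limma without the block, where 0.252% of all genes did, and 4 had an unadjusted p under 0.05. The study's thresholds gave 0 higher and 4 lower, where 13.4% of all genes passed. With the block, 2 chains rose and 6 fell, where 12.8% of all genes passed, and 11 passed the study's thresholds, where 18.4% did. Without the block the share of chains was no larger than that of all genes, and with it larger by adjusted p. All genes leaned the same way, with 373 higher and 1545 lower at the study's thresholds, or 705 and 816 after quantile normalization, which moved their median LogFC from -0.15 to 0.00. The chains had a median of -0.25, or -0.19 after it. The blocked count of 8 was 4 without the libraries numbered 1, 7 without those numbered 2 and 0 without those numbered 3. The 4 at the study's thresholds were 2 without DMEM replicate 2 or CHIR replicate 3, and 6 and 7 without CHIR replicates 1 and 2.

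The drugs were also set against NPEM, as in the study's own design, and these comparisons share the NPEM libraries with each other and with DMEM against NPEM. For CHIR, 33 chains were tested and 0 passed the adjusted p (0.378% of all genes), while 7 had an unadjusted p under 0.05. The study's thresholds gave 4 higher and 3 lower (8.93% of all genes). With the block, 1 passed the adjusted p (1.66%) and 14 the study's thresholds (12.2%). For YN1, 33 were tested and 0 passed the adjusted p (0.23%), while 10 had an unadjusted p under 0.05. Here 6 were higher and 4 lower at the study's thresholds (10.5%). With the block, 1 passed the adjusted p (0.754%) and 18 the study's thresholds (14.2%). The median LogFC of the chains was -0.02 for CHIR and 0.36 for YN1, beside -0.06 and 0.09 over all genes. The 7 for CHIR at the study's thresholds were 4 without NPEM replicate 2 and 15 without CHIR replicate 2. For YN1 the 10 were 5 without NPEM replicate 2 or 3, 6 without YN1 replicate 3 and 15 without YN1 replicate 2. The blocked counts of 1 were 0 without the libraries numbered 3 and 5 without those numbered 2 in both comparisons, and 4 for YN1 without those numbered 1.

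YN1 against DMEM gave no chain by any of these rules. Of 35 chains, 0 passed the adjusted p without the block (0% of all genes) or with it (0%), 0 passed the study's thresholds without it (0.455%) or with it (1.28%), and 0 without and 2 with the block had an unadjusted p under 0.05. These 2 were Col14a1 (LogFC = -0.27, SE 0.09, adjusted p = 0.618 with the block) and Col6a3 (LogFC = -0.14, SE 0.05, adjusted p = 0.618 with the block). Their median LogFC was -0.03. The widest gaps lay in replicate 1, where YN1 had 0.357 times the TPM of DMEM for Col6a2, 0.321 times for Col25a1 and 0.360 times for Col26a1. In replicates 2 and 3 the same ratios were 0.887 and 0.937, 0.884 and 0.966, and 0.915 and 0.721. Between the drugs, YN1 against CHIR tested 34 chains, of which 0 passed the adjusted p (0.00701% of all genes), 3 had an unadjusted p under 0.05 and 3 were higher at the study's thresholds (10.8%). With the block 1 passed the adjusted p (1.56%) and 10 the study's thresholds (16.1%). The 3 at the study's thresholds were 0 without CHIR replicate 3, 5 without CHIR replicate 1 and 2 without YN1 replicate 2, and the blocked count of 1 was 2 to 3 without any 1 number.

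**Figure D2:**
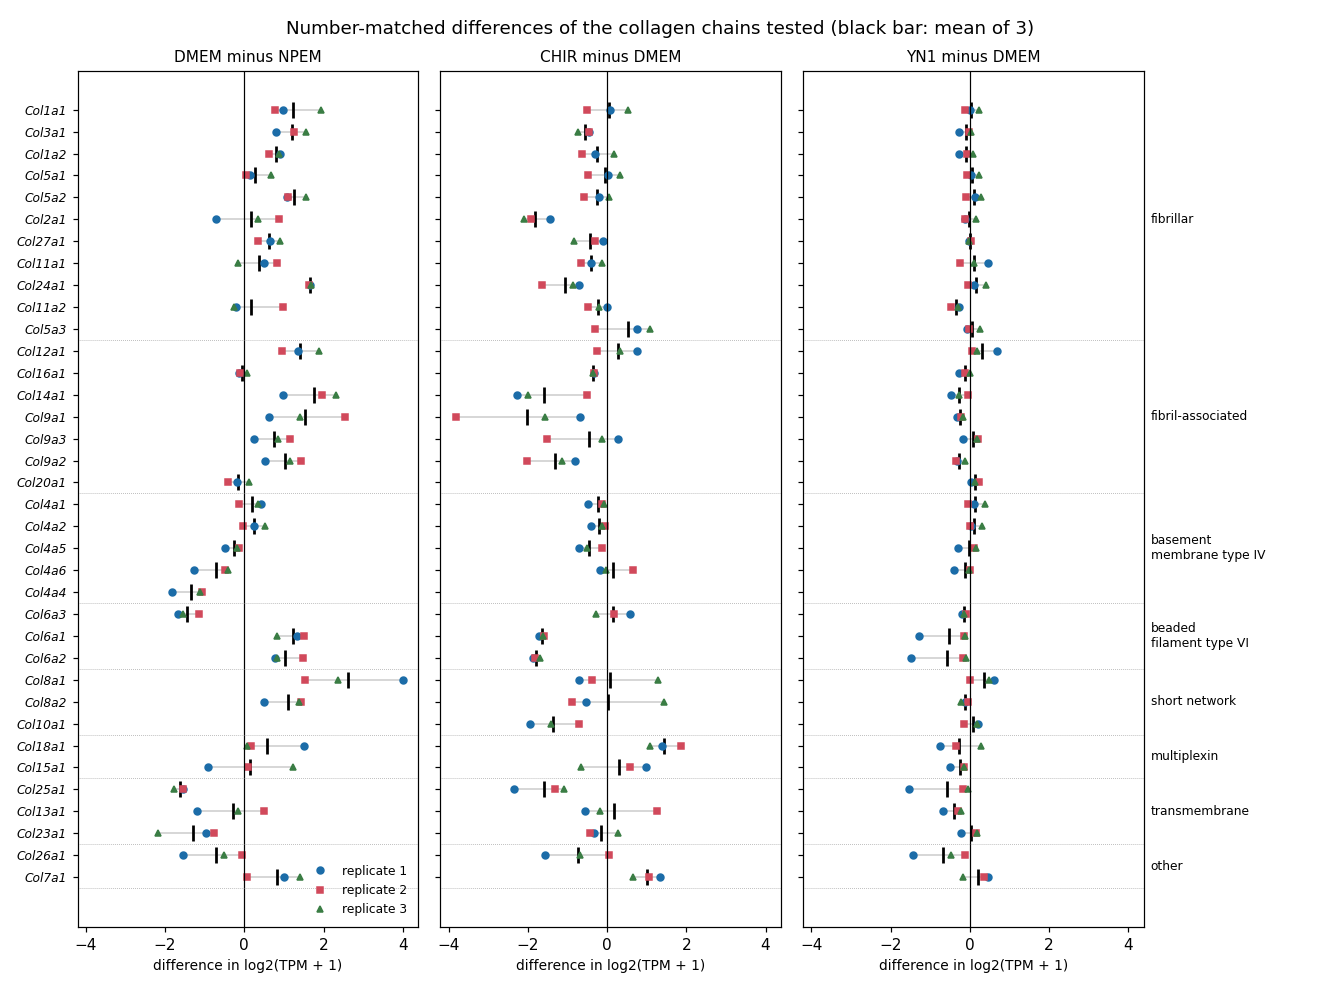
Differences in log2(TPM + 1) between libraries with the same replicate number, for each chain tested, ordered by class and by mean TPM. Coloured points are the 3 numbers and black bars their mean. Most fibrillar chains lie right of 0 for DMEM minus NPEM, Col6a1 and Col6a2 lie left of 0 for CHIR minus DMEM, and for YN1 minus DMEM the widest gaps belong to replicate 1.

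Of the 11 fibrillar chains, 10 were tested for DMEM against NPEM. All 10 had a LogFC above 0, 3 passed the study's thresholds (10.6% of all genes) and 4 rose (6.5%). The median LogFC was 0.71, beside 0.09 over all genes, and 0.66 beside -0.02 after quantile normalization. With CHIR against DMEM 9 of 11 had a LogFC below 0, 0 passed the study's thresholds (13.4% of all genes) and 2 fell (12.8%). All genes leaned the same way, with a median LogFC of -0.15 beside -0.26 for the fibrillar chains. After quantile normalization these medians were 0.00 and -0.12. Smooth muscle markers, also summed higher in DMEM (543 to 1758 TPM) than in NPEM (144 to 316 TPM), and their part in these values was not tested. Type I collagen, the main fibril of connective tissue, is built of Col1a1 and Col1a2 chains. Col1a1 (chr11:94797538-94814356 in mm9, plus strand) had 648, 316 and 375 TPM in NPEM, 1273, 543 and 1446 in DMEM, 1349.8, 384 and 2075 with CHIR and 1269, 499 and 1702 with YN1. It was higher in DMEM than in NPEM in every number, although the groups overlapped, because DMEM replicate 2 lay below NPEM replicate 1. For DMEM against NPEM it passed the study's thresholds but not the adjusted p (LogFC = 1.23, SE 0.42, adjusted p = 0.252, and SE 0.24, adjusted p = 0.0511 with the block). Its partner Col1a2 (chr6:4454814-4491543, plus strand) had 374, 246 and 340.0 TPM in NPEM, 699, 377 and 624 in DMEM, 561, 242 and 699 with CHIR and 578, 359 and 663 with YN1. All DMEM libraries were above all NPEM libraries, and Col1a2 rose there (LogFC = 0.80, SE 0.27, adjusted p = 0.241, and SE 0.08, adjusted p = 0.0242 with the block). With CHIR, Col1a1 and Col1a2 had a LogFC of 0.04 (SE 0.67) and -0.26 (SE 0.43) against DMEM. In that comparison replicates 2 and 3 lay on opposite sides of 0 for both chains.

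Type III collagen is a homotrimer of Col3a1 and mixes with type I in soft tissues. Col3a1 (chr1:45368383-45406551, plus strand) ran at 1138, 185 and 353 TPM in NPEM, 1993, 441 and 1043 in DMEM, 1462, 321 and 625 with CHIR and 1641, 434 and 1065 with YN1. Its level followed the number more than the group, with NPEM replicate 1 above every library numbered 2. Against NPEM it rose in DMEM (LogFC = 1.21, SE 0.76, adjusted p = 0.511, and SE 0.15, adjusted p = 0.0287 with the block), and relative to DMEM it fell with CHIR (LogFC = -0.55, SE 0.69, adjusted p = 0.703, and SE 0.09, adjusted p = 0.0336 with the block). Next to it on chromosome 1 lies Col5a2, 24614 bases away, on the other strand. Type V collagen is known to sit inside type I fibrils and to set their width, and is made mainly of Col5a1 and Col5a2. Col5a2 had 76.5, 7.75 and 19.2 TPM in NPEM, 162, 17.7 and 58.4 in DMEM, 139.8, 11.6 and 60.6 with CHIR and 176, 16.4 and 71.1 with YN1. Its libraries numbered 2 were the lowest of every group. It rose in DMEM, by 2.12-fold, 2.29-fold and 3.04-fold in replicates 1, 2 and 3 (LogFC = 1.24, SE 0.99, adjusted p = 0.609, and SE 0.13, adjusted p = 0.0249 with the block). The larger Col5a1 had 253, 105 and 131 TPM in NPEM, 278, 108 and 208 in DMEM, 284, 77.1 and 260.0 with CHIR and 283, 103 and 244 with YN1, with no call (DMEM against NPEM LogFC = 0.28, SE 0.43).

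Of the other fibrillar chains, Col24a1, known as a minor fibrillar chain of bone and cornea, had 4.06, 1.16 and 0.801 TPM in NPEM, 15.1, 5.74 and 4.76 in DMEM, 8.79, 1.17 and 2.17 with CHIR and 16.3, 5.57 and 6.58 with YN1. DMEM and YN1 libraries were all above those of NPEM, while CHIR overlapped with NPEM. NPEM replicate 3 was under 1 TPM, so DMEM was needed to carry Col24a1 past the filter on low values, which favours a difference. The chain rose in DMEM (LogFC = 1.66, SE 0.54, adjusted p = 0.226, and SE 0.17, adjusted p = 0.0239 with the block). Col2a1, the fibrillar collagen of cartilage that is also found early in other embryonic tissues, had 18.8, 77.2 and 45.3 TPM in NPEM, 11.1, 143 and 58.2 in DMEM, 3.45, 37.2 and 12.7 with CHIR and 10.2, 131 and 64.5 with YN1. Libraries numbered 2 were the highest in every group, and CHIR was the lowest group in every number. It fell with CHIR against DMEM (LogFC = -1.82, SE 1.07, adjusted p = 0.394, and SE 0.17, adjusted p = 0.0189 with the block) and was higher with YN1 than with CHIR, again past the adjusted p only with the block (LogFC = 1.79, SE 1.08, adjusted p = 0.454, and SE 0.20, adjusted p = 0.0369 with the block). Col27a1, Col11a1, Col11a2 and Col5a3 had mean levels of 2.13 to 15.0 TPM over the 12 libraries, and none passed the study's thresholds in any of the 6 comparisons without the block.

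**Figure D3:**
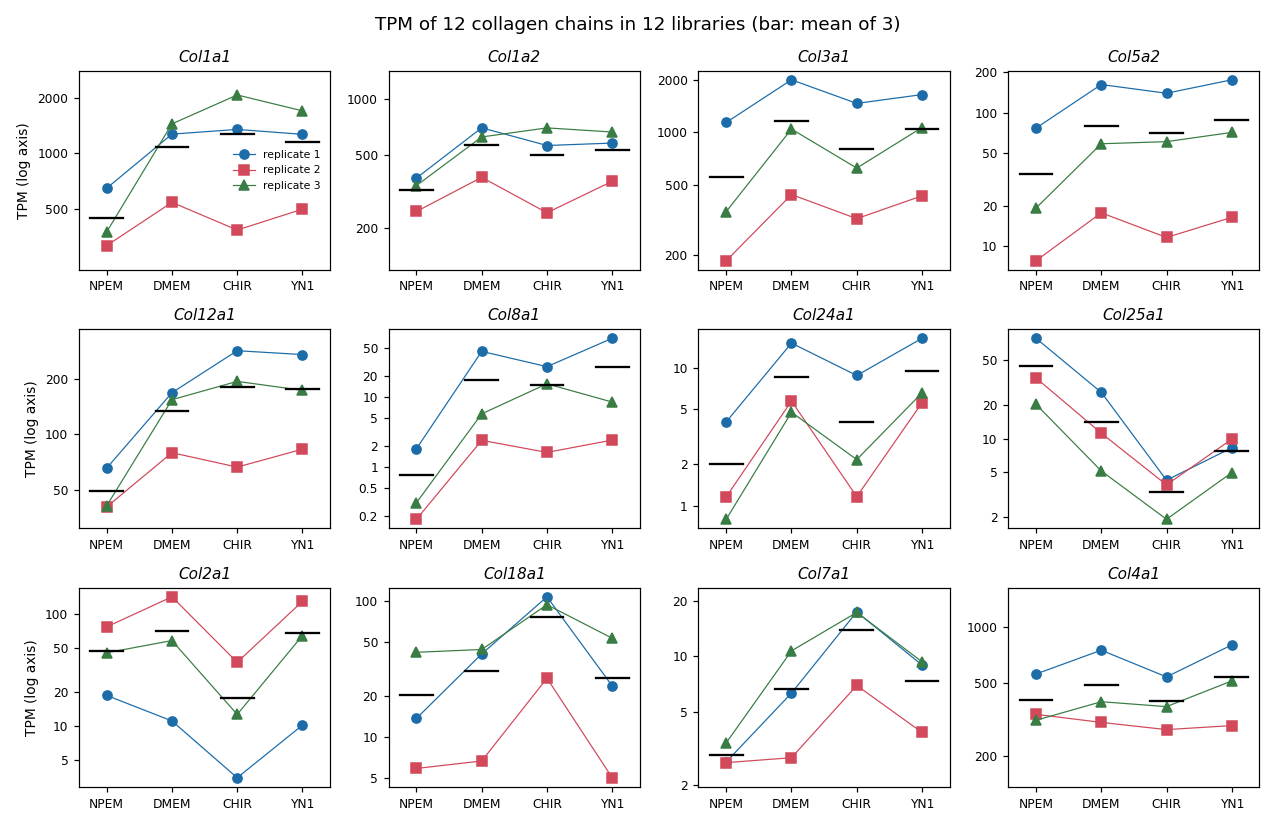
TPM (log axes that differ between panels) of 12 chains in the 4 groups. Points are libraries, thin lines join libraries with the same replicate number and black bars are means of 3. Col8a1 and Col24a1 are low in NPEM, Col25a1 is high there, and Col2a1 is low while Col18a1 and Col7a1 are high with CHIR.

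Fibril-associated collagens with interrupted helices bind the surface of fibrils. Col12a1, which decorates type I fibrils in tissues under load, had 65.5, 40.4 and 40.9 TPM in NPEM, 168, 79.3 and 154 in DMEM, 283, 66.3 and 193 with CHIR and 270.1, 82.9 and 173 with YN1. Every DMEM, CHIR and YN1 library was above every NPEM library. It rose in DMEM (LogFC = 1.40, SE 0.33, adjusted p = 0.121, and SE 0.19, adjusted p = 0.0304 with the block). Against NPEM it passed the study's thresholds with CHIR (LogFC = 1.67, SE 0.51, adjusted p = 0.266, and SE 0.32, adjusted p = 0.0837 with the block) and YN1 (LogFC = 1.70, SE 0.43, adjusted p = 0.160, and SE 0.23, adjusted p = 0.0584 with the block). Its relative Col14a1 had 94.2, 13.9 and 3.85 TPM in NPEM, 188, 57.6 and 23.3 in DMEM, 37.8, 40.4 and 5.04 with CHIR and 134, 55.2 and 19.1 with YN1. Within each number DMEM was above NPEM, by 1.99-fold, 4.14-fold and 6.05-fold, and the chain rose there (LogFC = 1.76, SE 1.17, adjusted p = 0.530, and SE 0.27, adjusted p = 0.0369 with the block). Col16a1 had 143, 59.5 and 62.5 TPM in NPEM, 130.2, 55.3 and 65.9 in DMEM, 103, 43.5 and 51.2 with CHIR and 108, 50.6 and 65.8 with YN1, with no call in the 6 comparisons, with LogFC = -0.05, SE 0.43 for DMEM against NPEM.

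Type IX collagen, made of Col9a1, Col9a2 and Col9a3, decorates the type II fibrils of cartilage. Col9a2 was low, at 0.536, 0.936 and 0.778 TPM in NPEM, 1.20, 4.22 and 2.96 in DMEM, 0.263, 0.282 and 0.811 with CHIR and 0.746, 3.13 and 2.61 with YN1. All DMEM libraries were above those of NPEM and of CHIR, and DMEM alone carried it past the filter on low values in both comparisons, which favours a difference. At the study's thresholds it was higher in DMEM than in NPEM (LogFC = 1.03, SE 0.37, adjusted p = 0.258, and SE 0.27, adjusted p = 0.0819 with the block) and lower with CHIR than in DMEM (LogFC = -1.32, SE 0.38, adjusted p = 0.146, and SE 0.31, adjusted p = 0.0546 with the block). Its partner Col9a1 had 0.105, 4.20 and 1.34 TPM in NPEM, 0.692, 29.4 and 5.21 in DMEM, 0.0558, 1.16 and 1.08 with CHIR and 0.356, 24.9 and 4.46 with YN1, with the highest values in DMEM and YN1 replicate 2, the number in which Col2a1 was also highest. Neither rule called Col9a1 without the block. Col9a3, Col20a1, Col19a1 and Col22a1 stayed at or under 4.49 TPM. The cartilage list of 4 markers summed to at most 1.801 TPM in any library.

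Type IV collagen forms the network of the basement membrane from Col4a1 and Col4a2, whose genes lie head to head on chromosome 8 with annotated starts 21 bases apart in mm9 (chr8:11198423-11312826 on the minus strand and chr8:11312805-11449287 on the plus strand). The gene bodies overlap by 22 bases, and the libraries were not stranded. Both promoter windows (RefSeq, GRCm38.p6, 250 bases before to 50 after the start, 5′ to 3′ on the gene's strand) are shown because the windows share 78 bases of the same DNA. Capitals mark matches on either strand to the TATA box TATAAA, the CCAAT box, the GC box GGGCGG, the TCF/LEF motif CTTTGNT or the AP-1 motif TGANTCA.
Col4a1 (chr8:11312777-11313076, minus strand): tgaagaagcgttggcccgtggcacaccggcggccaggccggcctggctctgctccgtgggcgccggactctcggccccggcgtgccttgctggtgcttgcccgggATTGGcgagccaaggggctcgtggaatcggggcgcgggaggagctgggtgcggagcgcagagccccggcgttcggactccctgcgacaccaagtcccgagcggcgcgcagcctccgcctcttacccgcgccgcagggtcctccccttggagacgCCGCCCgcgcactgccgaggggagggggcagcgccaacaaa
Col4a2 (chr8:11312555-11312854, plus strand): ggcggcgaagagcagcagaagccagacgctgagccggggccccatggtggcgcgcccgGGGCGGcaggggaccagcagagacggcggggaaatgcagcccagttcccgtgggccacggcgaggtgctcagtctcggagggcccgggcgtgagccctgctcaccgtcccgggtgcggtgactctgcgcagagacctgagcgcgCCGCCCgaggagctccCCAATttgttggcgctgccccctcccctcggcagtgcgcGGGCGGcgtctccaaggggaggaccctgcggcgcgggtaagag
Each window held CCAAT and GGGCGG, counting both strands. Of 32851 RefSeq promoter windows of this length 37.4% held CCAAT, 35.7% GGGCGG, 13.6% TATAAA, 18.6% CTTTGNT and 7.81% TGANTCA. Among the 38 windows of the 35 chains in the table, 13 held CCAAT, 23 GGGCGG, 5 TATAAA, 7 CTTTGNT and 1 TGANTCA. A match describes letters only.

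Col4a1 and Col4a2 were not called in any comparison. Col4a1 had 559, 338 and 314 TPM in NPEM, 752, 305 and 395 in DMEM, 539, 279 and 372 with CHIR and 803, 293 and 513 with YN1. Libraries numbered 1 were the highest, and the groups overlapped in every comparison. Col4a2 had 303, 178 and 183 TPM in NPEM, 358, 173 and 265 in DMEM, 270.4, 166 and 242 with CHIR and 364, 175 and 326 with YN1, again with the libraries numbered 1 the highest of each group. The chains had a LogFC for DMEM against NPEM of 0.21 (SE 0.37) and 0.25 (SE 0.31). Their ratio was 1.85, 1.90 and 1.72 in NPEM, 2.10, 1.76 and 1.49 in DMEM, 1.99, 1.68 and 1.54 with CHIR and 2.20, 1.68 and 1.57 with YN1.

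The other type IV chains build specialised membranes. Col4a5 and Col4a6, head to head on the X chromosome with starts 1309 bases apart, were highest in libraries numbered 2. Col4a5 had 21.7, 39.1 and 13.2 TPM in NPEM, 15.3, 35.8 and 11.6 in DMEM, 8.94, 32.7 and 7.89 with CHIR and 12.3, 38.4 and 12.9 with YN1, with no call. Col4a6 ranged from 1.59 to 17.7 TPM, also with no call. Col4a4, a chain of the mature glomerular membrane whose start lies 72 bases from that of Col4a3 on chromosome 1, had 3.65, 2.87 and 2.33 TPM in NPEM, 0.315, 0.835 and 0.532 in DMEM, 0.199, 0.571 and 0.383 with CHIR and 0.346, 0.948 and 0.714 with YN1. All NPEM libraries were above all others, and NPEM alone carried it past the filter on low values, which favours a difference. It passed the study's thresholds as lower in DMEM (LogFC = -1.34, SE 0.27, adjusted p = 0.0923, and SE 0.25, adjusted p = 0.0501 with the block), with CHIR (LogFC = -1.51, SE 0.27, adjusted p = 0.0848, and SE 0.26, adjusted p = 0.0711 with the block) and with YN1 (LogFC = -1.24, SE 0.29, adjusted p = 0.139, and SE 0.28, adjusted p = 0.0992 with the block) against NPEM. Col4a3 showed the same order near the limit of 1 TPM, at 1.05, 0.915 and 0.959 TPM in NPEM and at most 0.479 elsewhere, and was not tested because it reached 1 TPM in 1 library only.

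Type VI collagen is assembled from Col6a1, Col6a2 and another chain, usually Col6a3, into beaded filaments around cells. Its chains did not all move the same way for DMEM against NPEM. With CHIR against NPEM the LogFC was below 0 for Col6a1 (-0.43), Col6a2 (-0.77) and Col6a3 (-1.30). Col6a1 (chr10:76171537-76188913, minus strand) had 98.5, 39.6 and 36.1 TPM in NPEM, 251, 115 and 64.6 in DMEM, 74.7, 37.3 and 20.3 with CHIR and 102, 103 and 59.3 with YN1, and Col6a2 (chr10:76058507-76086375, minus strand) had 113, 44.5 and 33.3 TPM in NPEM, 195, 125 and 59.6 in DMEM, 52.8, 34.4 and 17.8 with CHIR and 69.6, 111 and 55.8 with YN1. In every number both were higher in DMEM than in NPEM and lower with CHIR than in DMEM, and for Col6a1 DMEM over NPEM was 2.54-fold, 2.91-fold and 1.79-fold and CHIR over DMEM 0.298-fold, 0.323-fold and 0.315-fold in replicates 1, 2 and 3. With the block both rose in DMEM (Col6a1 LogFC = 1.23, SE 0.56, adjusted p = 0.357 without and 0.0284 with the block, and Col6a2 LogFC = 1.023, SE 0.56, adjusted p = 0.439 and 0.0377). Both fell with CHIR against DMEM (Col6a1 LogFC = -1.65, SE 0.60, adjusted p = 0.206, and SE 0.09, adjusted p = 0.0116 with the block, and Col6a2 LogFC = -1.795, SE 0.52, adjusted p = 0.146, and SE 0.09, adjusted p = 0.0116 with the block). Their promoter windows are shown because the genes moved in parallel. The table holds a second Col6a2 window, chr10:76623581-76623880, minus strand, which overlaps the first and is not printed.
Col6a1 (chr10:76725995-76726294, minus strand): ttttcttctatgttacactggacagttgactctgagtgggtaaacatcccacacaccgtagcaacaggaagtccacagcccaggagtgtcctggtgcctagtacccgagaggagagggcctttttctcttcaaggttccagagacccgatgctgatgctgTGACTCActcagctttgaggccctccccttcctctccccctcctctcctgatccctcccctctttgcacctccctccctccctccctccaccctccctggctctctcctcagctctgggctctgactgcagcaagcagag
Col6a2 (chr10:76623355-76623654, minus strand): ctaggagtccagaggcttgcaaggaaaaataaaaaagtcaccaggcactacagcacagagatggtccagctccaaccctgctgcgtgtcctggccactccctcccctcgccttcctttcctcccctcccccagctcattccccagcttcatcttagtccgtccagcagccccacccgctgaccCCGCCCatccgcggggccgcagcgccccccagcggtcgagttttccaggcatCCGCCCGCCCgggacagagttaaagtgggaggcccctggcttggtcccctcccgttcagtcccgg
The Col6a1 window held TGACTCA starting 90 bases before the start, and the Col6a2 window printed held GGGCGG on the other strand at 3 places. The second Col6a2 window held GGGCGG on the other strand and the TCF/LEF motif CTTTGNT on the other strand, starting 42 bases before its start. None of the motifs found in either Col6a2 window was found in that of Col6a1.

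Col6a3 (chr1:92663435-92740529, minus strand), the largest type VI chain, went the other way for DMEM against NPEM. It had 484, 175 and 126 TPM in NPEM, 152, 78.4 and 42.1 in DMEM, 228, 88.4 and 34.7 with CHIR and 132, 73.6 and 38.1 with YN1. Within each number NPEM was the highest group, while the groups overlapped across numbers. It fell in DMEM (LogFC = -1.46, SE 0.61, adjusted p = 0.318, and SE 0.12, adjusted p = 0.0175 with the block) and with YN1 (LogFC = -1.60, SE 0.60, adjusted p = 0.289, and SE 0.15, adjusted p = 0.0439 with the block) against NPEM. With CHIR against NPEM it had LogFC = -1.30 (SE 0.74, adjusted p = 0.583, and SE 0.19, adjusted p = 0.0532 with the block). That value passed the study's thresholds with the block only. With CHIR against DMEM it had LogFC = 0.16 (SE 0.73, and SE 0.18 with the block). Both count as no call. The ratio of Col6a3 to Col6a1 was 4.91, 4.40 and 3.49 in NPEM, 0.606, 0.679 and 0.652 in DMEM, 3.05, 2.37 and 1.70 with CHIR and 1.30, 0.712 and 0.642 with YN1. In NPEM it was above 3 in every library, in DMEM below 1 in every library, and with CHIR between the NPEM and DMEM values in each number. This ratio was chosen after its values were seen and was not tested. Col6a4, Col6a5 and Col6a6, which can replace Col6a3, stayed at or below 1.62 TPM.

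**Figure D4:**
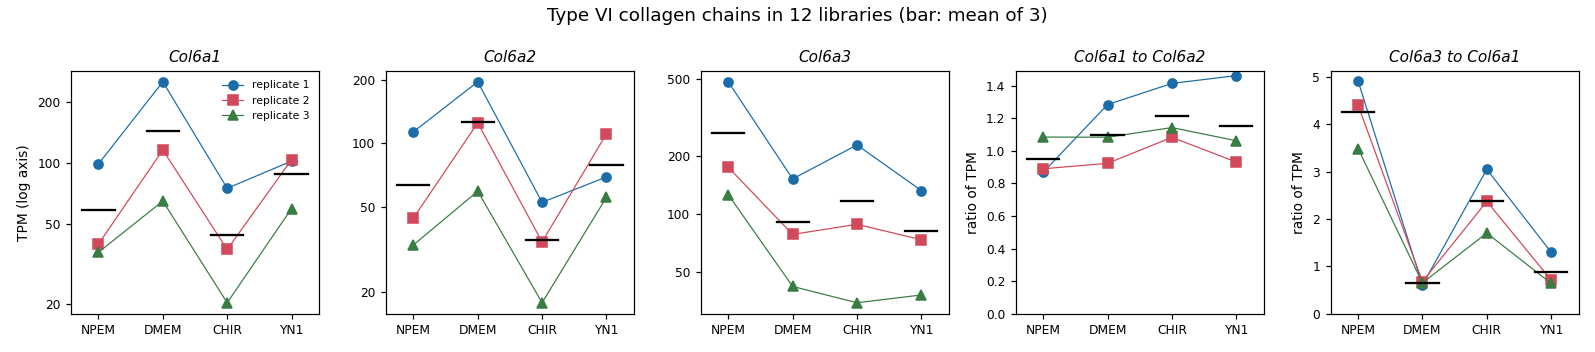
TPM of the type VI chains (log axes) and the ratios Col6a1 to Col6a2 and Col6a3 to Col6a1 (linear axes from 0) in the 4 groups. Points are libraries, thin lines join libraries with the same replicate number and black bars are means of 3. Col6a1 and Col6a2 peak in DMEM and dip with CHIR, while Col6a3 is highest in NPEM, so that the last ratio is 3.49 to 4.91 in NPEM and 0.606 to 0.679 in DMEM.

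Short network collagens of types VIII and X form hexagonal lattices, type VIII around vessels and under some epithelia and type X in growing cartilage. Col8a1 (chr16:57624371-57754850, minus strand) had the largest LogFC above 0 against NPEM of the chains tested, in DMEM, with CHIR and with YN1. It had 1.81, 0.179 and 0.308 TPM in NPEM, 44.1, 2.38 and 5.69 in DMEM, 26.7, 1.60 and 15.2 with CHIR and 67.8, 2.40 and 8.36 with YN1. All DMEM and all YN1 libraries were above all NPEM libraries. Of the NPEM libraries only replicate 1 reached 1 TPM. In each comparison with NPEM the other group thus carried Col8a1 past the filter on low values, which favours a difference. DMEM over NPEM was 24.4-fold, 13.3-fold and 18.5-fold by number, although the level in replicate 1 was far above the others. It passed the study's thresholds but not the adjusted p in DMEM (LogFC = 2.63, SE 0.93, adjusted p = 0.258, and SE 0.50, adjusted p = 0.0501 with the block), with CHIR (LogFC = 2.69, SE 0.87, adjusted p = 0.289) and with YN1 (LogFC = 2.99, SE 1.04, adjusted p = 0.259). Its partner Col8a2 had 7.50, 1.91 and 2.04 TPM in NPEM, 11.04, 6.86 and 6.94 in DMEM, 7.36, 3.25 and 20.7 with CHIR and 10.05, 6.57 and 5.78 with YN1 and passed the study's thresholds in DMEM alone (LogFC = 1.11, SE 0.46, adjusted p = 0.318). Col10a1 was listed at 0.0147, 0 and 0.0512 TPM in NPEM, and had 8.70, 0.944 and 4.79 in DMEM, 1.51, 0.184 and 1.18 with CHIR and 10.3, 0.767 and 5.53 with YN1. It was tested only where it passed the filter on low values. It fell with CHIR against DMEM (LogFC = -1.36, SE 0.62, adjusted p = 0.292, and SE 0.30, adjusted p = 0.0482 with the block). The windows of Col8a1 and Col10a1 are shown because both chains were under 1 TPM in most NPEM libraries and above 5 TPM in others.
Col8a1 (chr16:57754688-57754987, minus strand): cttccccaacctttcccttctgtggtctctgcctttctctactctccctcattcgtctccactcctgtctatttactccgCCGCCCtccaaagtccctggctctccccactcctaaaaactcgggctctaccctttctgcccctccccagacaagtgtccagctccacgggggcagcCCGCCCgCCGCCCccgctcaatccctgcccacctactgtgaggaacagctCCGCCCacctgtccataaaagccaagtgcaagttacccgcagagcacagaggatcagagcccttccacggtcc
Col10a1 (chr10:34389731-34390030, plus strand): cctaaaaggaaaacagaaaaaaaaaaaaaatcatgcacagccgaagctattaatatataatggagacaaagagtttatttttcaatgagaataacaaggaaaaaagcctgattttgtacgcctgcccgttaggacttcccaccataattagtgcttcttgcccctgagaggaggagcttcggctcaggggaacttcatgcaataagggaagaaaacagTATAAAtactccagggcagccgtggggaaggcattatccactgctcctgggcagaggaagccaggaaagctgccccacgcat
The Col8a1 window held GGGCGG on the other strand at 4 places, and the Col10a1 window TATAAA starting 32 bases before the start.

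Multiplexins are basement membrane collagens with heparan or chondroitin sulfate chains, and Col18a1 is the source of endostatin. Col18a1 had 13.7, 5.86 and 42.0 TPM in NPEM, 40.8, 6.65 and 44.05 in DMEM, 108, 27.1 and 94.1 with CHIR and 23.7, 5.002 and 53.3 with YN1. CHIR was the highest group in every number. The chain rose with CHIR against DMEM, by 2.63-fold, 4.07-fold and 2.14-fold (LogFC = 1.44, SE 0.81, adjusted p = 0.375, and SE 0.18, adjusted p = 0.0230 with the block). Against NPEM the CHIR value passed the study's thresholds (LogFC = 2.02, SE 0.76, adjusted p = 0.362, and SE 0.34, adjusted p = 0.0655 with the block). Col15a1 had 98.9, 11.3 and 4.83 TPM in NPEM, 52.1, 12.1 and 12.6 in DMEM, 103, 18.5 and 7.65 with CHIR and 36.7, 10.9 and 11.4 with YN1, with the libraries numbered 1 far above the rest and no call in any comparison. Col7a1, the anchoring fibril of the skin that fastens basement membranes to the stroma, had 2.67, 2.64 and 3.38 TPM in NPEM, 6.30, 2.81 and 10.7 in DMEM, 17.3, 6.92 and 17.2 with CHIR and 8.94, 3.85 and 9.31 with YN1. It also rose with CHIR against DMEM, by 2.75-fold, 2.46-fold and 1.62-fold (LogFC = 1.01, SE 0.51, adjusted p = 0.328, and SE 0.19, adjusted p = 0.0394 with the block), and all CHIR libraries were above all NPEM libraries, past the study's thresholds (LogFC = 1.83, SE 0.37, adjusted p = 0.111, and SE 0.29, adjusted p = 0.0605 with the block). In YN1 it was higher than in NPEM at the study's thresholds (LogFC = 1.03, SE 0.35, adjusted p = 0.257, and SE 0.28, adjusted p = 0.123 with the block). YN1 against CHIR passed for neither rule in Col18a1 (LogFC = -1.72, SE 0.87) or Col7a1 (LogFC = -0.80, SE 0.45) without the block.

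Transmembrane collagens are single-pass membrane proteins whose collagenous ectodomain can be shed. Col25a1 (chr3:129883809-130302795, plus strand), needed in mice for motor axons to innervate muscle, had 78.0, 34.7 and 20.2 TPM in NPEM, 25.8, 11.2 and 5.16 in DMEM, 4.27, 3.88 and 1.92 with CHIR and 8.29, 9.89 and 4.99 with YN1. All NPEM libraries were above all CHIR and YN1 libraries, and all DMEM libraries above all CHIR libraries. It fell in DMEM (LogFC = -1.63, SE 0.65, adjusted p = 0.296, and SE 0.12, adjusted p = 0.0148 with the block) and with CHIR against NPEM (LogFC = -3.21, SE 0.50, adjusted p = 0.0598, and SE 0.27, adjusted p = 0.0237 with the block). It fell further with CHIR against DMEM (LogFC = -1.58, SE 0.55, adjusted p = 0.192, and SE 0.29, adjusted p = 0.0378 with the block). YN1 passed the study's thresholds as lower than NPEM (LogFC = -2.21, SE 0.49, adjusted p = 0.129, and SE 0.32, adjusted p = 0.0613 with the block) and higher than CHIR (LogFC = 1.004, SE 0.35, adjusted p = 0.273, and SE 0.19, adjusted p = 0.0628 with the block). Its promoter window is shown as that of the chain with the largest fall.
Col25a1 (chr3:130180595-130180894, plus strand): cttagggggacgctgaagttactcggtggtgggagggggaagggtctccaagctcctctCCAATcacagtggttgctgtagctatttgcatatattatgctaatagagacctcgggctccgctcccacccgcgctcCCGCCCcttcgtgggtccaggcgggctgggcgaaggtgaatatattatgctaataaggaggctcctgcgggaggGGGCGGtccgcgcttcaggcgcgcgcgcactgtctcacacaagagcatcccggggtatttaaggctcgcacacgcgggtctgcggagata
It held CCAAT and GGGCGG, the latter on both strands. Col23a1 had 2.78, 3.82 and 8.60 TPM in NPEM, 0.916, 1.82 and 1.13 in DMEM, 0.528, 1.09 and 1.57 with CHIR and 0.637, 2.15 and 1.41 with YN1. NPEM libraries were all above the others. Replicate 1 was under 1 TPM in DMEM, with CHIR and with YN1. NPEM was thus needed to carry Col23a1 past the filter on low values, which favours a difference. Col23a1 passed the study's thresholds as lower in DMEM (LogFC = -1.31, SE 0.40, adjusted p = 0.202), with CHIR (LogFC = -1.47, SE 0.41, adjusted p = 0.214) and with YN1 (LogFC = -1.27, SE 0.43, adjusted p = 0.258). Col13a1, a collagen of the neuromuscular junction, had 4.78, 3.73 and 2.98 TPM in NPEM, 1.55, 5.72 and 2.57 in DMEM, 0.725, 15.2 and 2.17 with CHIR and 0.599, 4.46 and 2.05 with YN1, the highest value being CHIR replicate 2, with no call. Col26a1, placed among the others and not found in the annotation of mm9 under that name, had 259, 240.5 and 117 TPM in NPEM, 87.9, 232 and 81.0 in DMEM, 28.9, 239 and 50.2 with CHIR and 31.7, 212 and 58.4 with YN1. Libraries numbered 2 stayed between 212 and 240.5 TPM in all 4 groups, while those numbered 1 went from 259 in NPEM to 28.9 with CHIR, with no call.

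For 4 pairs of chains that assemble together, the log2 ratio was compared between groups by a two-sided exact permutation test over libraries. With 3 against 3 libraries the smallest p is 0.1, so no ratio could pass 0.05, and over the 20 tests the smallest adjusted p was 0.750. The ratio of Col1a1 to Col1a2 was 1.73, 1.29 and 1.10 in NPEM, 1.82, 1.44 and 2.32 in DMEM, 2.41, 1.59 and 2.97 with CHIR and 2.20, 1.39 and 2.56 with YN1. It was above the NPEM value of the same number in all 9 libraries of the other groups. The mean log2 ratio for CHIR minus NPEM was 0.74 (exact p = 0.200). Col5a1 to Col5a2 was 3.31, 13.6 and 6.80 in NPEM, 1.71, 6.09 and 3.56 in DMEM, 2.03, 6.65 and 4.29 with CHIR and 1.61, 6.30 and 3.43 with YN1. Here the other groups lay below NPEM in each number, and the libraries numbered 2 were the highest throughout. DMEM minus NPEM was -1.01 on the log2 scale (exact p = 0.300). Col6a1 to Col6a2 stayed between 0.869 and 1.46, and Col4a1 to Col4a2 between 1.49 and 2.20.

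Collagen chains need enzymes and chaperones before they leave the cell, and 7 lists of such genes were set beside them. Of 18 genes that modify and fold the chains, 17 were tested for DMEM against NPEM, and 1 passed the study's thresholds as higher and 0 as lower (10.6% of all genes), with a median LogFC of 0.07. Serpinh1, the collagen chaperone HSP47, had 1272, 1246 and 1373 TPM in NPEM, 1255, 1169.6 and 1471 in DMEM, 1328, 1206 and 1837 with CHIR and 1176, 1121 and 1499 with YN1. It was high in all 12 libraries, without a group that stood apart. Plod2, which hydroxylates lysines for stable crosslinks, rose in DMEM (LogFC = 0.69, SE 0.22, adjusted p = 0.217, and SE 0.10, adjusted p = 0.0346 with the block). With CHIR against DMEM P3h3, a prolyl 3-hydroxylase relative, fell (LogFC = -0.57, SE 0.13, adjusted p = 0.105, and SE 0.08, adjusted p = 0.0284 with the block). Among 15 genes of procollagen export and propeptide cleavage, Pcolce, which enhances the removal of the C-propeptide, had 185, 117 and 155 TPM in NPEM, 286, 237 and 283 in DMEM, 198, 100.5 and 161 with CHIR and 241, 209 and 257 with YN1. Pcolce rose in DMEM (LogFC = 0.83, SE 0.19, adjusted p = 0.117, and SE 0.10, adjusted p = 0.0262 with the block) and fell with CHIR against DMEM (LogFC = -0.86, SE 0.25, adjusted p = 0.149, and SE 0.15, adjusted p = 0.0352 with the block). In that list 3 of 12 genes tested rose in DMEM, where 6.5% of all genes passed, and 2 of 13 fell with CHIR against DMEM, a share near the 12.8% of all genes.

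Crosslinking genes had the highest median LogFC of the 7 lists for DMEM against NPEM. Of 7 tested, 4 were higher and 0 lower at the study's thresholds (10.6% of all genes), with a median LogFC of 1.47, and 3 rose with the block (6.5%). Of the 4, Loxl4 passed the filter on low values through DMEM alone, which favours a difference. Tgm2, a transglutaminase that crosslinks matrix proteins, had 0.709, 0.577 and 2.03 TPM in NPEM, 61.1, 25.8 and 37.6 in DMEM, 67.6, 13.8 and 32.9 with CHIR and 56.5, 21.4 and 30.6 with YN1. All libraries outside NPEM were above all NPEM libraries. In NPEM Tgm2 reached 1 TPM in replicate 3 only. In each comparison with NPEM the other group thus carried Tgm2 past the filter on low values, which favours a difference. It passed the adjusted p without the block in DMEM (LogFC = 4.31, SE 0.40, adjusted p = 0.0130, and SE 0.32, adjusted p = 0.0155 with the block) and with YN1 (LogFC = 4.09, SE 0.43, adjusted p = 0.0371, and SE 0.37, adjusted p = 0.0438 with the block), and missed it with CHIR (LogFC = 4.01, SE 0.57, adjusted p = 0.0521, and SE 0.45, adjusted p = 0.0337 with the block). Lox, the lysyl oxidase that starts the crosslinks of fibrils, had 128, 86.1 and 50.2 TPM in NPEM, 549, 274 and 239 in DMEM, 304, 88.6 and 134 with CHIR and 795, 361 and 263 with YN1. It rose in DMEM (LogFC = 1.99, SE 0.42, adjusted p = 0.104, and SE 0.13, adjusted p = 0.0133 with the block), fell with CHIR against DMEM (LogFC = -1.10, SE 0.50, adjusted p = 0.290, and SE 0.18, adjusted p = 0.0326 with the block) and was higher with YN1 than with CHIR (LogFC = 1.45, SE 0.55, adjusted p = 0.296, and SE 0.21, adjusted p = 0.0491 with the block). Loxl2, which acts on type IV collagen as well, rose in DMEM (LogFC = 1.72, SE 0.51, adjusted p = 0.198, and SE 0.32, adjusted p = 0.0494 with the block), and Loxl3 fell with CHIR against DMEM (LogFC = -0.86, SE 0.25, adjusted p = 0.146, and SE 0.12, adjusted p = 0.0259 with the block).

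**Figure D5:**
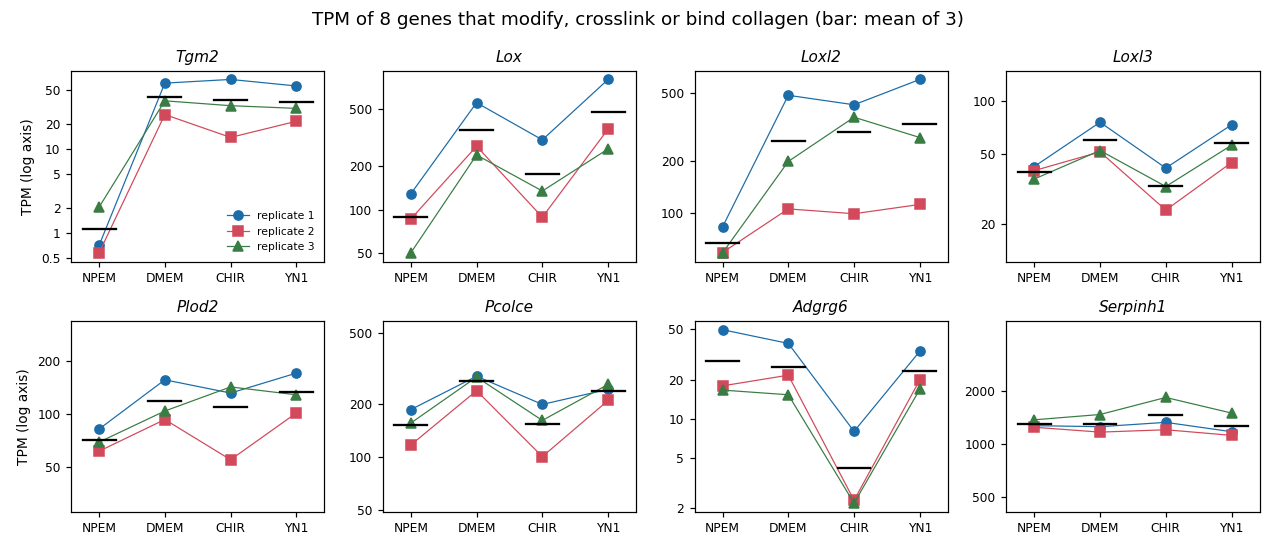
TPM (log axes that differ between panels) of 8 genes that act on or bind collagen chains, in the 4 groups. Points are libraries, thin lines join libraries with the same replicate number and black bars are means of 3. Tgm2 is at 0.577 to 2.03 TPM in NPEM and 13.8 to 67.6 elsewhere, Lox and Pcolce are higher in DMEM than with CHIR in every number, and Adgrg6 is lowest with CHIR.

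In the list of 17 genes for collagen breakdown and its inhibitors, Mmp9, a gelatinase that degrades denatured collagen and type IV, had 117, 30.5 and 17.2 TPM in NPEM, 4.69, 4.39 and 10.4 in DMEM, 9.62, 9.04 and 26.5 with CHIR and 3.49, 2.62 and 11.3 with YN1 and was lower in DMEM than in NPEM at the study's thresholds (LogFC = -2.54, SE 0.68, adjusted p = 0.159, and SE 0.69, adjusted p = 0.0898 with the block). Reck, a membrane inhibitor of metalloproteinases, fell with CHIR against DMEM (LogFC = -1.11, SE 0.27, adjusted p = 0.114, and SE 0.13, adjusted p = 0.0218 with the block), and Mmp8, a neutrophil collagenase, rose from levels under 1 TPM (LogFC = 1.12, SE 0.26, adjusted p = 0.109, and SE 0.22, adjusted p = 0.0428 with the block), where CHIR alone carried it past the filter on low values, which favours a difference. Of 11 collagen receptors, Adgrg6, an adhesion receptor that binds type IV collagen, had 49.8, 18.1 and 16.8 TPM in NPEM, 38.9, 22.0 and 15.5 in DMEM, 8.001, 2.32 and 2.20 with CHIR and 33.8, 20.2 and 17.1 with YN1. Every CHIR library was below every other library. It fell with CHIR against DMEM (LogFC = -2.43, SE 0.50, adjusted p = 0.0909, and SE 0.18, adjusted p = 0.0157 with the block) and against NPEM (LogFC = -2.50, SE 0.55, adjusted p = 0.139, and SE 0.16, adjusted p = 0.0168 with the block). The fibrillar collagen receptor Itga11 was higher in DMEM than in NPEM at the study's thresholds (LogFC = 2.36, SE 0.84, adjusted p = 0.258, and SE 0.58, adjusted p = 0.0772 with the block), while the collagen receptors Itga1 (LogFC = 1.45, SE 0.94, adjusted p = 0.521, and SE 0.13, adjusted p = 0.0203 with the block) and Ddr2 (LogFC = 1.33, SE 0.85, adjusted p = 0.515, and SE 0.17, adjusted p = 0.0289 with the block) rose there. Of 10 collagen-binding proteoglycans, Ogn had 3.12, 0.414 and 0.0316 TPM in NPEM, 108, 53.0 and 14.46 in DMEM, 37.4, 13.8 and 4.73 with CHIR and 129, 56.0 and 11.4 with YN1, rose in DMEM (LogFC = 4.63, SE 0.80, adjusted p = 0.0683, and SE 0.29, adjusted p = 0.0131 with the block) and fell with CHIR against DMEM (LogFC = -1.60, SE 0.89, adjusted p = 0.371, and SE 0.14, adjusted p = 0.0166 with the block). In NPEM, Ogn and Itga11 each reached 1 TPM in 1 library only. For DMEM against NPEM the DMEM libraries thus carried both past the filter on low values, which favours a difference. Of 16 basement membrane partners, Sparc, which binds collagen and calcium, rose in DMEM (LogFC = 0.76, SE 0.17, adjusted p = 0.118, and SE 0.12, adjusted p = 0.0400 with the block), and Fras1 and Lama4 fell with CHIR against DMEM (Fras1 LogFC = -1.72, SE 0.39, adjusted p = 0.105, and SE 0.21, adjusted p = 0.0230 with the block, and Lama4 LogFC = -1.25, SE 0.35, adjusted p = 0.134, and SE 0.27, adjusted p = 0.0487 with the block).

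Markers of other cells moved with some of these results. The 4 smooth muscle markers in the files summed to 144 to 316 TPM in NPEM, 543 to 1758 in DMEM, 888 to 3033 with CHIR and 589.9 to 3037 with YN1, and 3 of them, Tagln, Cnn1 and Myh11, rose in DMEM (Tagln LogFC = 3.65, SE 0.51, adjusted p = 0.0473, and SE 0.48, adjusted p = 0.0304 with the block). The same 3 rose again with CHIR against DMEM, where 6 chains fell, Col3a1 and Col6a1 among them, and 2 rose, Col18a1 and Col7a1. Myh11 reached 1 TPM in NPEM replicate 1 only, so DMEM carried it past the filter on low values there, which favours a difference. Acta2, also on the list, was not analysed here. The 7 markers of nephrogenic stroma summed to 245 to 518, 243 to 462, 256 to 403 and 237 to 360.2 TPM in the same order of groups. Among them Foxd1, a defining stromal factor, was listed at 0.0444, 0 and 0.0310 TPM in NPEM and at most 4.20 elsewhere. It rose in DMEM (LogFC = 1.93, SE 0.29, adjusted p = 0.0544, and SE 0.27, adjusted p = 0.0320 with the block), but DMEM alone carried it past the filter on low values, which favours a difference. Pdgfra, a stromal receptor, was 49.9 TPM in NPEM replicate 1 and 9.17 and 2.24 in replicates 2 and 3, the same order of replicate 1 over the others as for Col3a1, Col14a1 and Col15a1. Tcf21, Pdgfrb and Tbx18 were also highest in NPEM replicate 1, while Meis1 was highest in replicate 2 and Ntn1 in replicate 3. The 6 endothelial markers summed to 99.3 to 135, 99.4 to 241, 17.1 to 32.3 and 78.3 to 126 TPM, most of it from Emcn. Emcn had 86.4, 95.7 and 129.6 TPM in NPEM, 235, 143 and 98.1 in DMEM, 25.1, 31.8 and 13.9 with CHIR and 117, 125 and 76.1 with YN1, and fell with CHIR against DMEM (LogFC = -2.68, SE 0.40, adjusted p = 0.0649, and SE 0.21, adjusted p = 0.0157 with the block). The 9 progenitor markers summed to 462 to 745, 322 to 713, 168 to 483 and 253 to 695 TPM. For CHIR against DMEM, 7 of the 9 had a LogFC below 0 and 2 above 0. Cited1 had 27.9, 84.4 and 36.7 TPM in DMEM and 1.39, 6.13 and 1.11 with CHIR. Pax2 went the other way, from 0.500, 0.642 and 3.97 TPM in DMEM to 1.75, 10.1 and 6.49 with CHIR. Markers of the forming nephron summed to 17.6 to 32.3, 19.0 to 43.0, 65.4 to 217 and 25.9 to 48.8 TPM. With CHIR most of the forming nephron sum came from Wnt4, at 85.8, 39.1 and 175.5 TPM. Lhx1 stayed under 1 TPM in every library. Pax8 had 2.52, 22.6 and 14.9 TPM in DMEM and 3.19, 19.6 and 11.9 with CHIR. Jag1 had 12.5, 5.40 and 14.4 TPM in DMEM and 15.3, 4.24 and 28.99 with CHIR. The part of all these markers in the collagen results was not tested.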

How the data were processed

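RNA was sequenced from 12 poly-A libraries, not stranded. The authors quantified them with Kallisto and deposited TPM per gene, and the submitters' processing notes also name STAR, RSEM and FastQC, without versions, and mm9 and mm10. The tables also hold the authors' own comparisons with NPEM, and further files hold only such fold changes and p-values. These were not used. Read counts and depths are not given in the sources used here, so their number and precision cannot be stated. The members, classes and lists of genes were chosen with earlier results of these data known.

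For a comparison, genes that 3 or more of its 6 libraries held at 1 TPM or above were tested with limma 3.58.1 (R 4.3.3, lmFit and eBayes with trend) on log2(TPM + 1), and p-values were adjusted by Benjamini-Hochberg over all of them. The study's thresholds are an absolute LogFC above 0.6 with an unadjusted p under 0.05. Ratios were compared in Python 3.11.15 with scipy 1.17.1. The limma step was tested on simulated data.

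The replicate number pairs the samples. The methods describe 3 independent NPC preparations, and a library whose title has no number was taken as replicate 1. Over 15680 genes, deviations from the group means correlated at 0.349 to 0.689 in the 18 pairs with the same number and at -0.452 to -0.0698 in the 36 pairs with different numbers. Deviations cancel within a group, so positive values for the same number force negative ones among the other pairs, which are not separate evidence. Nothing in the labels says what a number marks. The cells came from pooled embryos. Without the block, a p-value sets the difference between groups against the spread between libraries of a group. With the block, it sets that difference against how much it varies from number to number.

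Chains were named that passed the adjusted p in any comparison or the study's thresholds in at least 2, that had the highest mean TPM of their class (3 in the fibrillar and type IV classes and 2 in the others), or that form the pairs. Col2a1, Col10a1 and Col14a1, called only with the block, and Col4a3, Col4a6 and Col9a1 were added after their values were seen. Genes of other lists were picked for naming mainly from those that passed the adjusted p or had 1 of the 2 lowest p in their list and comparison. Not all such genes were named, and some of those shown were picked after their values were seen. Gene positions are from GENCODE M1 on mm9 and promoter sequences from RefSeq on GRCm38.p6, which matched 35 of the 44 chains, and the builds were not mixed. Alternatives were quantile normalization, no filter, a mean of at least 5 TPM, a pseudocount of 0.1, all 12 libraries in one fit, the replicate block and leaving out each library.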

Additional observations from a re-analysis of the deposited data

How the results depend on the processing

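With the replicate number as a block, the chains past the adjusted p went from 0 to 10 for DMEM against NPEM, 1 for CHIR and 1 for YN1 against NPEM, 8 for CHIR against DMEM and 1 for YN1 against CHIR. Those past the study's thresholds became 21, 14, 18, 11 and 10 in the same order, and every one of the 35 called values of LogFC without the block kept its call. One fit over all 12 libraries gave 1, 2 and 1 chains past the adjusted p for DMEM, CHIR and YN1 against NPEM, 6 past the study's thresholds for DMEM against NPEM and 0 for YN1 against CHIR. A mean of at least 5 TPM gave 7 past them for DMEM against NPEM. The cause of these shifts was not tested, apart from the fewer genes that the last filter leaves. Leaving out each library gave 3 to 12 chains past the study's thresholds for DMEM, 4 to 15 for CHIR and 5 to 15 for YN1 against NPEM, 2 to 7 for CHIR and 0 to 1 for YN1 against DMEM, and 0 to 5 for YN1 against CHIR. By adjusted p it gave 0 to 3 for CHIR against NPEM, the 3 without CHIR replicate 2.

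No called LogFC changed sign. Of 35, quantile normalization took 3 below the study's thresholds, no filter 4, a pseudocount of 0.1 took 2 and the fit over all libraries 13. A mean of at least 5 TPM removed 8 of the 35, those of Col4a4, Col9a2 and Col23a1, and took 1 more below the thresholds, which left 26. Leaving out the libraries numbered alike from the blocked fit was chosen after seeing the data.

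Some log2 ratios of chain pairs changed sign when 1 library was left out, none of which was past a threshold. The ratio of Col4a1 to Col4a2 ran from -0.165 to 0.0819 for DMEM, -0.176 to 0.0109 for CHIR and -0.162 to 0.0812 for YN1 against NPEM, and from -0.155 to 0.0919 for CHIR and -0.122 to 0.149 for YN1 against DMEM. Col5a1 to Col5a2 ran from -0.266 to 0.679 for CHIR and -0.513 to 0.478 for YN1 against DMEM. For YN1 against DMEM, Col1a1 to Col1a2 ran from -0.0626 to 0.379 and Col6a1 to Col6a2 from -0.128 to 0.197. TPM without counts limits what can be said of chains near 1 TPM.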
